A study of Mus musculus with 7 samples.

Results

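Osteoclasts are the large cells with many nuclei that dissolve bone, and the genes described here are 8 of those that make, fuse and equip them: Nfatc1, Oscar, Dcstamp, Ocstamp, Acp5, Car2, Calcr and Rufy4. They were chosen by name, with earlier results of these data known, and each was read from the brightest probe set that carries its symbol alone, which for all 8 is also the single probe set that does so. They are 8 of 22180 genes measured. In 3 samples of blastema, the cell mass that regrows an amputated digit tip, taken 2 weeks after amputation from C57Bl/6 mice, 5 of the 8 genes were higher than in 4 samples of uninjured digit of the same strain. Car2 was lower, and Calcr and Rufy4 did not pass the test. Of all genes measured, 9.64% passed in either direction, 4.98% as higher and 4.66% as lower in blastema. The groups did not overlap for 6 of the 8 genes, 5 higher and 1 lower, against 21% of all genes, 10.4% higher and 10.6% lower.

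The title of the study asks about Schwann cell precursors in digit tip regeneration, and the arrays compare the regenerating with the intact digit. The labels call the samples of each group separate biological replicates. The sources used here give neither the age of the mice nor whether an array holds RNA of 1 digit or of a pool. The samples are mixed tissue: keratinocyte markers averaged 10.01 in blastema and 10.64 in uninjured digit on the log2 scale, and osteoblast markers 8.38 in blastema and 6.22 in uninjured digit. In such tissue more cells of a type and more RNA per cell cannot be told apart.

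Osteoclasts form from cells of the macrophage lineage when the cytokine RANK ligand, made by bone-forming and other stromal cells, meets its receptor RANK while the growth factor CSF1 keeps the precursors alive. Receptors such as OSCAR add a calcium signal through adaptor proteins that carry an activation motif called ITAM, and calcineurin then lets the transcription factor NFATc1 enter the nucleus, where it switches on genes of fusion and of resorption. In the regenerating mouse digit tip, osteoclasts erode the stump of the terminal bone before new bone is laid down.

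RefSeq start sites on mouse build GRCm38.p6 were at hand for 4 of the 8 genes, 7 sites in all, and the 250 bases before each were searched on both strands for short letters bound by factors of this pathway. These were GGAAA (the NFAT core), TGANTCA (AP-1), GAGGAA (PU.1), and TCACGTG and TCATGTG (MITF). GAGGAA and GGAAA can overlap, though no such overlap occurs in the sequences printed. The windows of Oscar (minus strand, chr7:3616158-3616407), of the most upstream Acp5 start (minus strand, chr9:22135747-22135996) and of Rufy4 (plus strand, chr1:74125291-74125540) are shown 5′ to 3′ with matches in capitals. Oscar and Acp5 each rose more than 1 log2 unit, and Rufy4 did not pass.
Oscar: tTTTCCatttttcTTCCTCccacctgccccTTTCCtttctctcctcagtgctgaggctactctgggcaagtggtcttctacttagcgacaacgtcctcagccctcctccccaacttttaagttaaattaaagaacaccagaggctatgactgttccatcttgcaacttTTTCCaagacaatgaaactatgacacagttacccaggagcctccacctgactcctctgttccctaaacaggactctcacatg
Acp5: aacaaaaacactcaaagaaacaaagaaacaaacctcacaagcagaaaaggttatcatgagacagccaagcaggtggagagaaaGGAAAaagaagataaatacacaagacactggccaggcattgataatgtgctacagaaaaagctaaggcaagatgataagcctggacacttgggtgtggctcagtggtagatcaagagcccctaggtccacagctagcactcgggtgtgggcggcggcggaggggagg
Rufy4: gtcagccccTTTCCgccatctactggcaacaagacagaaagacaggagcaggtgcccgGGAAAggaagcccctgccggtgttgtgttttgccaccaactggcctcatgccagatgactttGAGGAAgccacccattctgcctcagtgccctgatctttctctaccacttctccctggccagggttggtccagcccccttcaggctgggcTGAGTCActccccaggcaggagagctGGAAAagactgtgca
The Oscar window holds 3 copies of the NFAT core, which start 249, 220 and 82 bases before the start site, and 1 copy of GAGGAA. The Acp5 window holds 1 NFAT core, and its other listed starts hold 1 and 2, the last with 1 TCATGTG as well. Rufy4 holds 3 NFAT cores, 1 TGANTCA and 1 GAGGAA, while the Calcr starts hold 1 NFAT core and none. Such letters are common: of 32851 promoter windows of the same length, 55.6% hold GGAAA, 23.3% GAGGAA, 6.75% TGANTCA, 3.13% TCACGTG and 3.25% TCATGTG. A match is a description of the letters and not a bound site.

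The array values are on a log2 scale, so that a difference of 1 is a doubling. All 7 arrays had medians between 5.53 and 5.58, and their number limits the precision. In a principal component analysis the first component (57.4% of the variance) separated blastema from uninjured digit. The second (14.3%) set array 1 of each group apart (15.78 in blastema and 24.77 in uninjured digit) from the other 5 arrays (-13.59 to -3.18). Counts without those arrays are therefore given too. Of all genes that passed, 51.7% were higher in blastema, or 22.9% when arrays were scaled to 9 reference genes, which moved the median change of all genes to -0.18. A level of 5.52, below which 95% of 1105 olfactory receptor genes lay, served as a proxy for background. Changes below are log2 fold changes, blastema minus uninjured digit, with the SE of a limma fit over all 22180 genes, and adjusted p-values are limma's after Benjamini-Hochberg over all genes. The 5 and 1 calls were the same without both arrays numbered 1, an alternative that was not planned. With the replicate number as a block, which was planned although the labels do not pair the arrays, 1 member was higher (Acp5) and 0 were lower. The calls of Oscar, Ocstamp, Dcstamp, Nfatc1 and Car2 were lost in that fit (adjusted p = 0.0503 to 0.12). With 6 arrays in the fit, Car2 stayed below the threshold of 0.05 in every omission, while the genes called higher numbered 4 without blastema array 1 or uninjured array 1, 3 without blastema array 3 or uninjured array 2, 3 or 4, and 2 without blastema array 2.

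**Figure D1:**
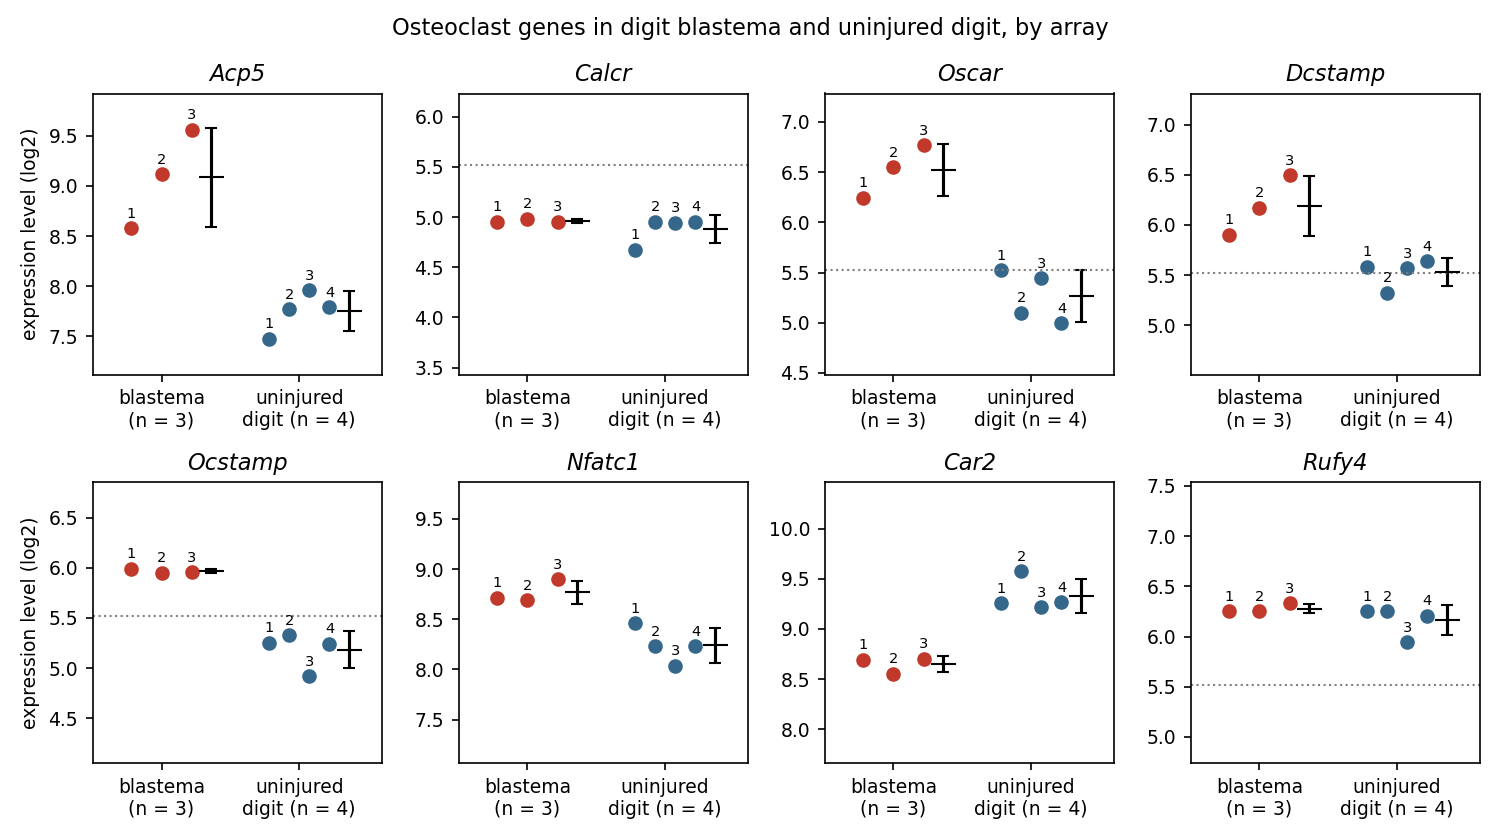
Log2 level of each of the 8 genes on each array, blastema (red, n = 3) left of uninjured digit (blue, n = 4); digits name the array, black bars give the mean ± SD, every panel spans the same number of log2 units, and the dotted line marks the background proxy of 5.52 where it falls in range. The groups do not overlap for Acp5, Oscar, Dcstamp, Ocstamp, Nfatc1 and Car2, and they do for Calcr and Rufy4.

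Nfatc1 encodes the master transcription factor of osteoclast formation, which also acts in T cells, heart valves and hair follicle stem cells. Its level was 8.71, 8.69 and 8.90 on the blastema arrays, against 8.46, 8.23, 8.04 and 8.23 on the uninjured arrays. All blastema arrays lay above all uninjured ones, with a gap of 0.23 between the groups. Nfatc1 rose by 0.53 ± 0.11 or 1.44-fold (95% interval 0.27 to 0.78, limma adjusted p = 0.0259), the smallest of the 5 rises. The call held when uninjured array 1 was the array left out and was lost in the other 6 omissions (adjusted p = 0.0513 to 0.105). It was lost as well when arrays were scaled to a list of reference genes (0.36, adjusted p = 0.16).

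OSCAR is a receptor of the immunoglobulin type that binds collagen and signals through the Fc receptor gamma chain. Oscar lay at 6.25, 6.55 and 6.77 in blastema, against 5.53, 5.10, 5.44 and 5.0 in uninjured digit. All blastema arrays lay above all uninjured ones, 0.72 apart. The blastema mean was 6.52 ± 0.26 (SD, n = 3), and the uninjured mean of 5.27 ± 0.26 (SD, n = 4) was under the background proxy. Oscar rose by 1.25 ± 0.17 or 2.38-fold (95% interval 0.85 to 1.65, limma adjusted p = 0.00655), and the call held in all 7 omissions of 1 array.

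DC-STAMP and OC-STAMP are related membrane proteins, and mice lacking either form osteoclasts that fail to fuse and keep a single nucleus. Ocstamp stood at 5.99, 5.95 and 5.96 in blastema, against 5.25, 5.33, 4.92 and 5.24 in uninjured digit. The blastema arrays lay within 0.04 of each other, and all uninjured arrays were under the background proxy. Ocstamp rose by 0.78 ± 0.10 or 1.72-fold (95% interval 0.54 to 1.02, limma adjusted p = 0.00578), also in all 7 omissions. Dcstamp, which dendritic cells express too, reached 5.90, 6.17 and 6.49 in blastema, against 5.58, 5.32, 5.57 and 5.64 in uninjured digit. The groups were 0.26 apart, and the uninjured arrays lay around the background proxy. Dcstamp rose by 0.66 ± 0.15 or 1.58-fold (95% interval 0.32 to 1.00, limma adjusted p = 0.0322). This call was less firm: it held when blastema array 1 was the array left out and was lost in the other 6 omissions (adjusted p = 0.0644 to 0.105), under reference gene scaling (0.49, adjusted p = 0.0697) and with all probe sets in the adjustment (adjusted p = 0.0501).

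Acp5 encodes tartrate-resistant acid phosphatase, the enzyme whose stain identifies osteoclasts in tissue sections, and macrophages make it as well. Its level was 8.58, 9.12 and 9.56 in blastema, against 7.48, 7.77, 7.96 and 7.79 in uninjured digit. Every blastema array was above every uninjured array by at least 0.62, and the blastema arrays differed from each other by 0.98, the widest range in blastema among the 8 genes. The means were 9.08 ± 0.49 (SD, n = 3) in blastema and 7.75 ± 0.20 (SD, n = 4) in uninjured digit. Acp5 rose by 1.33 ± 0.22 or 2.52-fold (95% interval 0.81 to 1.86, limma adjusted p = 0.0127). Without blastema array 2 its log2 fold change was 1.32 and the adjusted p 0.0609. Among the blastema arrays, Acp5, Oscar, Dcstamp, Nfatc1, Car2 and Rufy4 were each highest on array 3. Calcr was highest on array 2 and Ocstamp on array 1, though the blastema arrays of Ocstamp lay within 0.04 of each other.

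Carbonic anhydrase II, the product of Car2, makes the protons that osteoclasts secrete onto bone, and it is abundant in red cells and in many epithelia. Car2 measured 8.69, 8.55 and 8.70 in blastema, against 9.26, 9.57, 9.21 and 9.27 in uninjured digit. All blastema arrays were below all uninjured ones, 0.51 apart, and uninjured array 2 stood above the rest of its group. Car2 fell by 0.68 on the log2 scale (SE 0.10, 95% interval -0.91 to -0.44, limma adjusted p = 0.00826), so that the uninjured digit had 1.6-fold more. Its direction was thus opposite to that of the other 5 genes that passed. Of 12 keratinocyte markers 6 fell and 0 rose, and their summed signal on the linear scale was 26083 to 28037 in blastema and 32147 to 39146 in uninjured digit. Of 13 sweat gland markers 2 fell and 0 rose, with sums of 1047 to 1083 in blastema and 1098 to 2060 in uninjured digit, and the other 11 did not pass. The mean of the gland markers was 6.54 on uninjured array 4 and 6.04 to 6.23 on the other uninjured arrays. Of 9 erythroid markers 0 fell and 1 rose, Bpgm (0.41, adjusted p = 0.0326), with sums of 471 to 488 in blastema and 479 to 536 in uninjured digit and 7 of the 9 under the background proxy in both groups. Omitting 1 array left 2 to 5 keratinocyte and 1 sweat gland marker lower, and the call of Bpgm was lost in 6 of the 7 omissions (up to 0.118). No marker of these lists is at 0, since the array gives every probe set a value. Their part in the fall of Car2 was not tested.

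Calcr encodes the calcitonin receptor, through which the hormone calcitonin halts resorption and which marks mature osteoclasts. It lay at 4.95, 4.98 and 4.95 in blastema, against 4.68, 4.95, 4.94 and 4.95 in uninjured digit. All 7 arrays were under the background proxy, so the signal does not bound a change in Calcr. The difference was 0.082 (95% interval -0.11 to 0.28, limma adjusted p = 0.598). RUFY4 is a RUN and FYVE domain protein that acts in autophagy and lysosome positioning in dendritic cells, and it occurs in osteoclasts. Rufy4 stood at 6.25, 6.25 and 6.33 in blastema, against 6.25, 6.25, 5.94 and 6.21 in uninjured digit, a difference of 0.12 (95% interval -0.096 to 0.33, limma adjusted p = 0.482). Under reference gene scaling both differences turned negative (-0.090 for Calcr and -0.056 for Rufy4). In each gene 4 of the 7 arrays carried the same deposited value to the last digit, as did 2920 of all genes (13.2%). The reason was not tested.

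**Figure D2:**
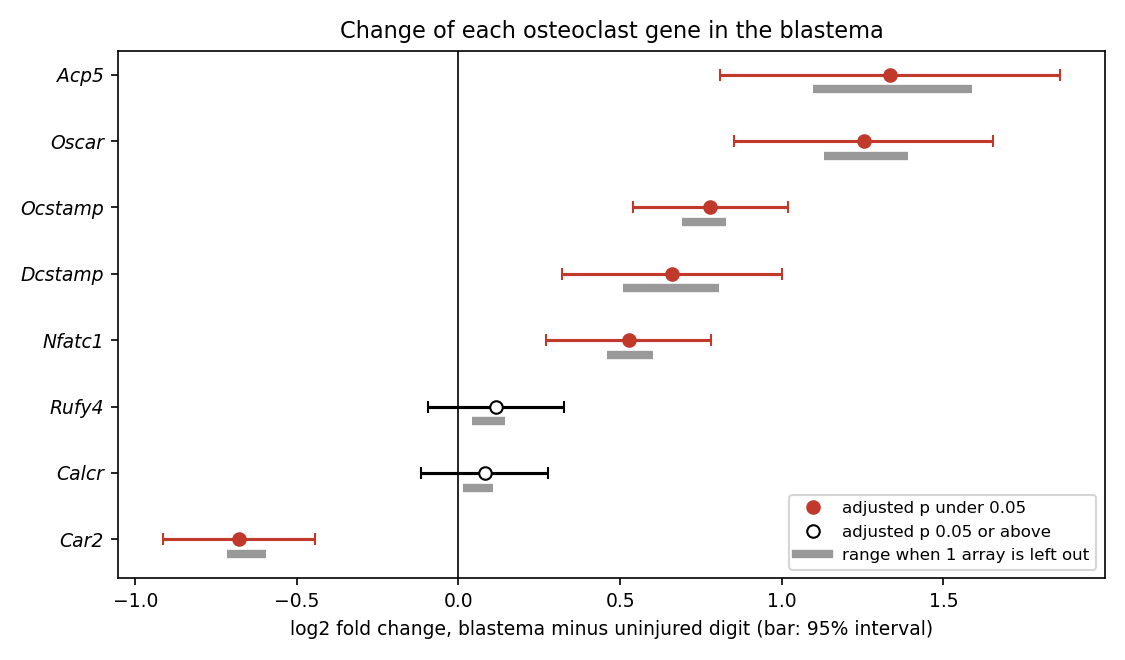
Log2 fold change, blastema minus uninjured digit, of the 8 genes with the 95% interval of the limma fit over 7 arrays (points and thin bars; filled where the adjusted p was under 0.05) and the range of the fold change when 1 array was left out (grey bars). Acp5 and Oscar lie highest at 1.33 and 1.25, Car2 lies at -0.68, and no omission of an array turned a sign.

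The rest of the pathway was read from lists that were chosen, like the 8 genes, with earlier results known. Counts stand against the 9.64% of all genes that passed and a median change of -0.0054 over all genes. Genes named are up to 4 per list with the largest changes that passed, and a gene outside this rule is marked as named after its value was seen. For Atp6v0d2, Car3, Grem1, Laptm5, Ms4a7, Phex and Xcr1, as for Oscar and Ocstamp, the uninjured mean was under the background proxy, so the size of the change is not settled. The uninjured means of Mmp9 and Itgb3, each at 5.56, were just above the proxy of 5.52, so the size of their changes is uncertain as well. Without both arrays numbered 1, the genes higher and lower numbered 2 and 1 for the cytokine signalling list, 4 and 1 for transcription factors, 7 and 0 for the ITAM list, 0 and 1 for calcineurin and NFAT, 9 and 0 for fusion, 4 and 0 for surface genes and 7 and 0 for resorption.

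Few of the genes upstream of Nfatc1 passed, and the receptors for both cytokines were among these. Of 15 RANK ligand, osteoprotegerin and CSF1 signalling genes 2 rose and 0 fell, and the median was 0.065. That is 13.3%, near the 9.64% of all genes. The 2 were Csf1r, the CSF1 receptor (0.82 ± 0.15, adjusted p = 0.0194), and Tnfrsf11a, which encodes RANK (0.45 ± 0.11, adjusted p = 0.0427). Csf1r is also counted among the macrophage markers below. Both calls were lost without blastema array 2 or 3 or uninjured array 3 or 4, and that of Tnfrsf11a also without uninjured array 1 or 2 (adjusted p up to 0.0827 for Csf1r and 0.156 for Tnfrsf11a). The call of Tnfrsf11a was lost as well under reference gene scaling, under scaling to the array median and with all probe sets in the adjustment. The RANK ligand gene Tnfsf11 (0.78 ± 0.25, adjusted p = 0.108) and its decoy receptor gene Tnfrsf11b (0.43 ± 0.19, adjusted p = 0.201), named after their values were seen, did not pass. Of 22 osteoclast transcription factors and their repressors 3 rose and 1 fell, and the median was 0.11. Rela, an NF-kappaB subunit (1.28 ± 0.10, adjusted p = 0.00136), and Spi1, which encodes the myeloid factor PU.1 (0.82 ± 0.09, adjusted p = 0.0035), rose in all 7 omissions. Myc rose (0.34 ± 0.07) and Cebpa, a factor of myeloid cells and also of fat and skin cells, fell (-0.92 ± 0.17), and these calls were lost in 6 and 4 omissions (adjusted p up to 0.0796 and 0.0877).

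Of 23 ITAM adaptor and costimulatory genes 8 rose and 1 fell, and the median was 0.33. The list holds both the collagen genes Col1a1 and Col2a1, whose products bind OSCAR. Col1a1 rose by 3.48 ± 0.27 (adjusted p = 0.0014), and Col2a1, named after its value was seen, did not pass (0.33, adjusted p = 0.117). The inhibitory receptor gene Lilrb4a (2.98 ± 0.35), the collectin receptor gene Colec12 (2.08 ± 0.24) and the adaptor gene Lcp2 (1.84 ± 0.30) followed. Fcer1g, the Fc receptor gamma chain through which OSCAR signals, measured 7.79 ± 0.35 (SD, n = 3) in blastema and 6.47 ± 0.24 (SD, n = 4) in uninjured digit. It rose by 1.32 ± 0.19 (limma adjusted p = 0.00739), and the related adaptor gene Tyrobp by 0.91 ± 0.17 (adjusted p = 0.0182), both named after their values were seen. The member that fell was the exchange factor gene Vav3 (-0.60, adjusted p = 0.0391), also named so. Without blastema array 2 the list had 4 genes higher and the call of Lcp2 was lost (adjusted p = 0.0563), Tyrobp was lost in 4 omissions (up to 0.0702) and Vav3 in 6 (up to 0.145).

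The enzymes and the other relatives of Nfatc1 gave few calls. Of 15 calcineurin and NFAT family genes 0 rose and 1 fell, and the median was 0.055. At an unadjusted p under 0.05 1 was higher and 2 lower. The one that fell was Homer2, a scaffold protein that binds NFAT (-0.66 ± 0.12, adjusted p = 0.0183), and its call was lost in 4 omissions (up to 0.0812). The calcineurin gene Ppp3ca (0.12, adjusted p = 0.665) and the NFAT genes Nfatc2 (0.16, adjusted p = 0.323) and Nfatc4 (0.57, adjusted p = 0.0655), named after their values were seen, did not pass.

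Fusion and attachment genes beside Dcstamp and Ocstamp were higher in part. Of 24 cell fusion and multinucleation genes 8 rose and 1 fell, and the median was 0.31. The metalloproteinase gene Adam12 (1.86 ± 0.11, adjusted p = 0.00122) and the glycoprotein gene Cd200 (1.58 ± 0.25, adjusted p = 0.0103) rose, besides Mmp9 and Atp6v0d2. Stat6, a factor of interleukin 4 signalling, fell (-0.36, adjusted p = 0.0387, named after its value was seen). Of 16 osteoclast surface and attachment genes 4 rose and 0 fell, and the median was 0.22. They were the podosome scaffold gene Sh3pxd2b (0.85 ± 0.15, adjusted p = 0.015), the integrin genes Itgb3 (0.68 ± 0.14, adjusted p = 0.0282) and Itgav (0.54 ± 0.11, adjusted p = 0.0247), whose products pair as the receptor that seals osteoclasts to bone, and Tnfrsf11a. Itgb3 is also counted among the fusion genes that rose. Its call was lost in 6 omissions (adjusted p up to 0.112), that of Itgav in 5 (up to 0.0853) and that of Sh3pxd2b in 2 (up to 0.066). The call of Itgav was lost under reference gene scaling too. The counts of both lists moved with single arrays. Without blastema array 1, 2 or 3 the surface genes that rose numbered 4, 0 and 1, and without uninjured array 1, 2, 3 or 4 they numbered 2, 0, 1 and 1. The fusion genes that rose numbered 9, 4 and 4 in the first set of omissions and 6, 5, 5 and 5 in the second, Cd200 being lost without blastema array 2 or 3 (up to 0.0567) and Stat6 in 6 omissions (up to 0.125).

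Of 19 genes of the resorption machinery 7 rose and 0 fell, and the median was 0.036, the other 12 not passing. Ctsk, the cathepsin that digests bone collagen, measured 9.88 ± 0.43 (SD, n = 3) in blastema and 6.57 ± 0.34 (SD, n = 4) in uninjured digit, a rise of 3.32 ± 0.24 (limma adjusted p = 0.00126). The gelatinase gene Mmp9 rose (4.59 ± 0.32, against an uninjured mean of 5.56, just above the background proxy). Atp6v0d2, a proton pump subunit that also acts in fusion (3.84 ± 0.41, against an uninjured mean of 4.23, under the background proxy), and the membrane metalloproteinase gene Mmp14 (2.40 ± 0.14) rose too. Acp5, at 1.33, and Car2, at -0.68, belong to the same step of the osteoclast's work. The pump subunit gene Tcirg1 rose by 0.88 ± 0.15 (adjusted p = 0.0136), while Atp6v1a (-0.030), the chloride channel gene Clcn7 (-0.012) and its partner Ostm1 (0.036) did not pass (adjusted p = 0.794, 0.948 and 0.825), all 4 named after their values were seen. The calls of Ctsk, Mmp9, Atp6v0d2 and Mmp14 held in all 7 omissions, and that of Tcirg1 was lost without blastema array 2 or 3 (up to 0.0563). Without blastema array 2 the genes that rose numbered 4.

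**Figure D3:**
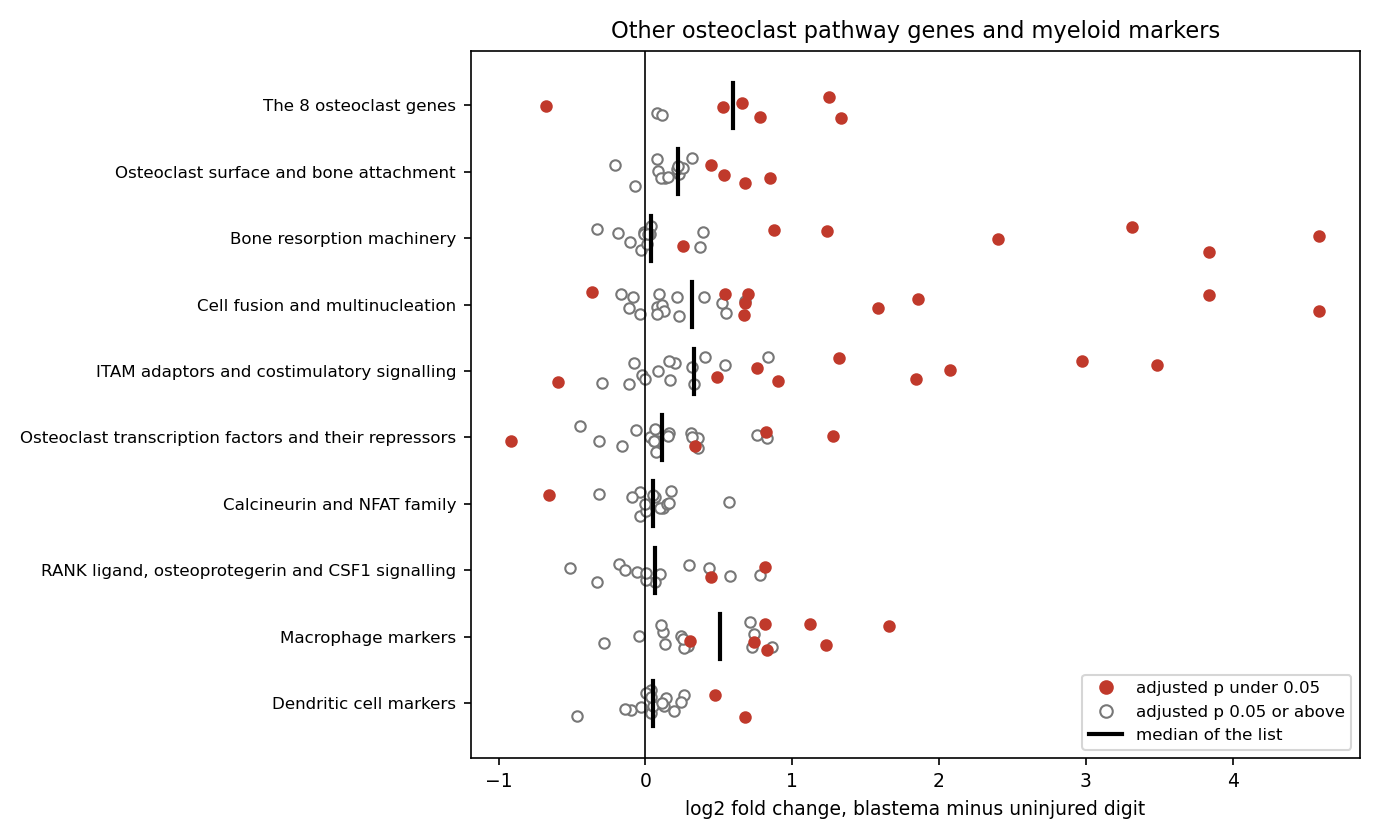
Log2 fold change, blastema minus uninjured digit, of each measured gene in the 8 osteoclast genes and in 9 lists of pathway genes and myeloid markers (filled red where the adjusted p was under 0.05; the black bar is the list's median). The 8 genes have a median of 0.59 and the 9 lists have medians between 0.036 and 0.51. Mmp9 at 4.59 and Atp6v0d2 at 3.84 are in the resorption and fusion lists. The uninjured mean of Mmp9 was just above the background proxy, and that of Atp6v0d2 was under it.

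Among 13 other carbonic anhydrases Car3, an isozyme of muscle and fat, rose (1.29 ± 0.16, adjusted p = 0.00435) and Car6, which is secreted in saliva, fell (-0.66 ± 0.15, adjusted p = 0.037), with a median of -0.053. Skeletal muscle markers had 0 limma calls among 14, and 0 also at an unadjusted p under 0.05, but 9 of the 14 were under the background proxy in both groups. Their sums were 540 to 582 in blastema and 546 to 584 in uninjured digit, and fat markers were not examined. Of 7 acid phosphatases other than Acp5 0 passed in either direction, with a median of -0.11, and 2 were higher and 1 lower at an unadjusted p under 0.05. Without blastema array 1, without both arrays numbered 1, or with array weights, 2 acid phosphatases passed as higher. Of 9 relatives and partners of the calcitonin receptor 0 rose and 1 fell, the peptide gene Calcb (-0.33 ± 0.08, adjusted p = 0.0371), with a median of 0.028. Of 20 RUN and FYVE domain genes and their autophagy partners 1 rose and 2 fell, with a median of -0.023. Rab7, a small GTPase of late endosomes, rose (0.26 ± 0.06, adjusted p = 0.0404), and the autophagy gene Gabarapl2 (-1.14 ± 0.14, adjusted p = 0.00482) and Plekhm3 (-0.33 ± 0.08, adjusted p = 0.0455) fell. Car3 and Gabarapl2 held in all 7 omissions, while Car6, Calcb, Rab7 and Plekhm3 were lost in 5, 6, 6 and 7 of them (up to 0.142, 0.125, 0.129 and 0.128).

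Macrophage markers, whose lineage osteoclasts share, were higher along with the 5 genes that rose. Of 20 such markers 7 rose and 0 fell, with a median of 0.51, and their summed linear signal was 2306 to 3015 in blastema and 1520 to 1760 in uninjured digit. The membrane protein gene Ms4a7 (1.66 ± 0.19), the complement gene C1qb (1.23 ± 0.20), the lysozyme gene Lyz2 (1.12 ± 0.24) and the lysosomal gene Laptm5 (0.83 ± 0.16) rose most (adjusted p = 0.00393, 0.0113, 0.0287 and 0.0191), and 4 of the 20 had both group means under the background proxy. The markers that rose numbered 10, 2 and 2 without blastema array 1, 2 or 3, and 7, 6, 2 and 2 without uninjured array 1, 2, 3 or 4. In those omissions Lyz2 and Laptm5 were lost without blastema array 2 or 3 or uninjured array 3 or 4 (up to 0.119 and 0.0823). Without both arrays numbered 1 they numbered 7, with 1 lower. Dendritic cell markers, which bear on Dcstamp and Rufy4, rose in 2 of 17, Xcr1 (0.68 ± 0.12) and Fscn1 (0.47 ± 0.09), with a median of 0.055 and sums of 1409 to 1525 in blastema and 1342 to 1558 in uninjured digit. Without blastema array 3 Xcr1 was lost (0.0593), and Fscn1 without blastema array 2 or uninjured array 2 or 3 (up to 0.0801). Of 12 neutrophil markers and 9 T and B cell markers 0 passed, and 1 of each list was higher at an unadjusted p under 0.05. Of the neutrophil markers 9 were under the background proxy in both groups, and their sums were 448 to 998 in blastema and 408 to 463 in uninjured digit. Without blastema array 1, or without both arrays numbered 1, 2 neutrophil markers passed as higher. Osteoblast markers rose in 9 of 11, with a median of 2.32, led by Ibsp, Col1a1, Alpl and Phex (5.73, 3.48, 3.44 and 2.64). The part of these cell types in the changes of the 8 genes was not tested.

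Each gene was next set against the mean of the 20 macrophage markers on its own array, as a description with no test. On this scale Acp5 was 0.79 higher in blastema than in uninjured digit and Oscar 0.71 higher, and the groups still did not overlap. Relative to the markers, Acp5 stood at 2.27, 2.54 and 2.91 in blastema, against 1.6, 1.68, 2.10 and 1.74 in uninjured digit. The differences were 0.24 for Ocstamp, 0.12 for Dcstamp and -0.015 for Nfatc1, and here the groups overlapped. They were -0.43 for Rufy4 and -1.22 for Car2, without overlap. For Calcr, under the background proxy on all 7 arrays, and for Rufy4, whose own level differed by 0.12, a marker mean that is 0.54 higher in blastema itself gives a negative difference, so nothing is read from them. Acp5 and Oscar were thus higher by more than the marker mean on these arrays, a mean that includes 13 markers that did not pass. Of the 7 markers that passed, Ms4a7 rose by 1.66, more than Acp5 (1.33) and Oscar (1.25), and the others by 1.23 or less. The uninjured mean of Oscar was under the background proxy.

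**Figure D4:**
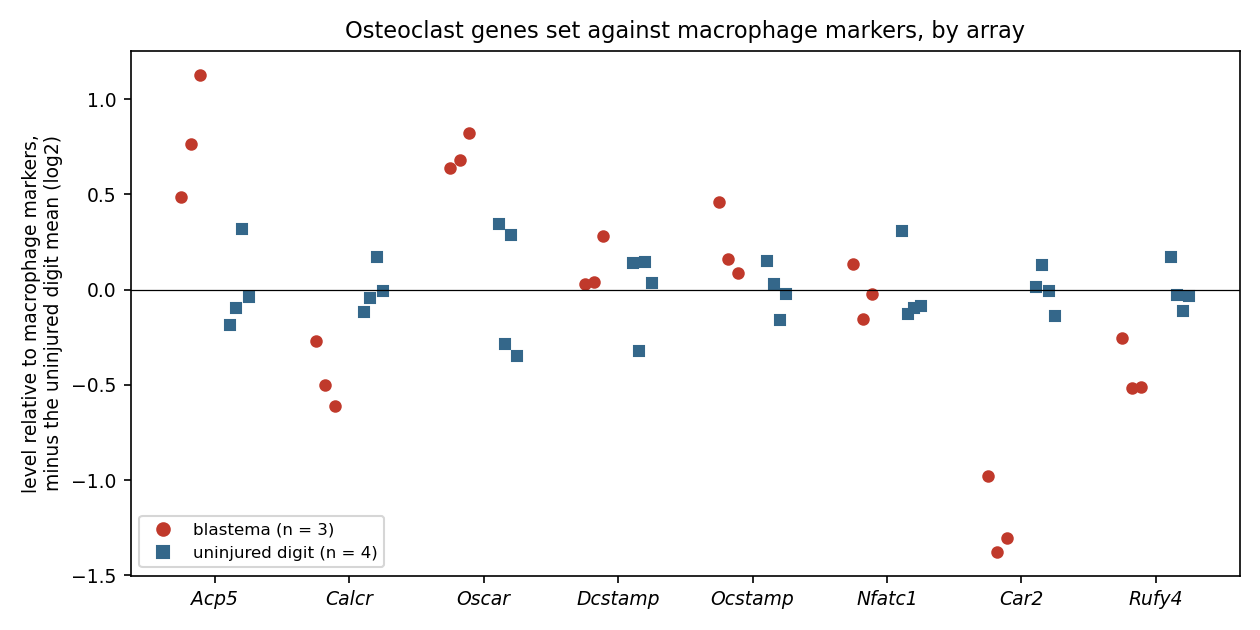
Level of each gene minus the mean of 20 macrophage markers on the same array, on the log2 scale and with the uninjured digit mean of each gene set to 0, for blastema (red circles, n = 3) and uninjured digit (blue squares, n = 4). The blastema points of Acp5 and Oscar lie above all uninjured points, those of Calcr, Car2 and Rufy4 below all of them, and the ranges of both groups overlap for Dcstamp, Ocstamp and Nfatc1. Calcr was under the background proxy on all 7 arrays.

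Likeness of pattern was measured as the root mean square difference between the levels of 2 genes over the 7 arrays, each gene centred on its own mean, among 17328 genes. Among the 8 genes the closest pair was Calcr and Rufy4 (0.16), the flat genes, followed by Ocstamp and Nfatc1 (0.17) and by Dcstamp and Nfatc1 (0.19). The farthest pair was Acp5 and Car2 (1.05). Nearest to Acp5 were B4galt5, a galactosyltransferase gene (0.11), Tnfrsf23, a decoy receptor gene (0.14), and Slc9b2, a sodium and proton exchanger gene of osteoclasts (0.14). Nearest to Oscar were Cd276 (0.088), Tmem45b (0.14) and Clec2e (0.14). Ocstamp was closest to Adgrl1 (0.081), Grem1 (0.095) and Cxcl14 (0.10), and Dcstamp to R3hdm1 (0.056), Pxk (0.071) and Dennd4a (0.080). Nfatc1 was closest to Zfp362 (0.052), Sgcb (0.054) and Dpy19l3 (0.055), and Car2 to Lrrc1 (0.046), Echs1 (0.069) and Rps27l (0.079). All 18 of these genes passed the limma test in the direction of the gene they resemble. The points of such a comparison share the same 7 arrays in 2 groups, so that a large change of equal size makes profiles alike.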

How the data were processed

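Total RNA (400 ng per sample) from 3 blastema and 4 uninjured digit samples carried a biotin label and was read on 1-colour arrays, per the labels' protocols. The deposited log2 values were made by the authors with oligo and RMA, a method of background correction, quantile normalization and probe summary, per the submitters' processing notes. No version or setting was given in the sources used here. The table held 41345 probe sets and 0 columns of other samples.

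The platform annotation gave 23521 probe sets 1 gene symbol, 1814 several and 16010 none. Genes were read from the brightest probe set with 1 symbol, 22180 genes in all. Entrez identifiers of 21994 were in the RefSeq table (GRCm38.p6), with the same symbols. Blastema was compared with uninjured digit by limma 3.58.1 (R 4.3.3), lmFit and eBayes, with no covariate and Benjamini-Hochberg adjustment over all genes at 0.05. The step was tested on simulated data.

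The 8 genes and the 21 lists (298 of 337 genes measured) were chosen with earlier results of these data known. Genes named are the 8, up to 4 called genes per list with the largest absolute change, and the 3 genes nearest in pattern to each called member, without predicted genes, receptors of smell and small RNAs. Alternatives were a replicate block, level filters, other probe set rules, variance models, array weights, scalings and the omission of arrays. Figures used Python 3.11.15 and matplotlib 3.10.9.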

Additional observations from a re-analysis of the deposited data

Results flagged for a closer look

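In 3 of the 8 genes 1 uninjured array stood apart from the other 3 of its group, judged by its gap to the nearest array over the range of the group. Calcr was at 4.68 on uninjured array 1, against 4.94 to 4.95 on the others. Car2 was at 9.57 on uninjured array 2, above the 9.21 to 9.27 of the others. Rufy4 was at 5.94 on uninjured array 3, below the 6.21 to 6.25 of the others. Chance alone marks about 1 in 20 groups of normally distributed values in this way. That rate does not apply to Calcr and Rufy4, where some uninjured arrays carried the same deposited value. The array that stood apart differed between the genes. Without that array the log2 fold change, blastema minus uninjured digit, was 0.013 for Calcr, -0.60 for Car2 and 0.042 for Rufy4. Car2 still passed the limma test (adjusted p = 0.0139), and Calcr and Rufy4 still did not.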

How the results depend on the processing

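The 8 genes were refitted under 17 alternatives, or 15 for Calcr, which both level filters removed. Among the genes that passed, no direction turned in any alternative. Reference gene scaling gave 3 higher members, 635 higher and 2140 lower genes and a median of -0.18 over all genes, with 22.9% of calls higher in place of 51.7%; its 9 genes include the called B2m, Gapdh and Rplp0. It turned Calcr to -0.090 and Rufy4 to -0.056. With all probe sets, 1619 were lower. The cause of these changes was not tested. The replicate numbers share no stated source, so they were not taken as pairs. Deviations of same-numbered arrays correlated at 0.286, 0.151 and -0.0651, and those of differently numbered arrays at -0.223 to 0.14. The values for arrays 1 and for arrays 2 were thus the highest between the groups. Whether same-numbered arrays share a factor was not tested. With the replicate number as a block 1 member was higher (Acp5), 0 were lower (adjusted p = 0.0539 for Oscar, 0.0503 for Ocstamp, 0.0821 for Dcstamp, 0.12 for Nfatc1 and 0.0678 for Car2), and 295 genes were higher and 304 lower. Omitting 1 array gave 2 to 4 higher members and 1 lower, and 457 to 1286 higher and 365 to 1009 lower genes, with fewer samples in each fit. Signal near background limits Calcr, Oscar, Ocstamp, Dcstamp, Atp6v0d2, Mmp9 and Itgb3.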
